A study of Bos taurus with 18 samples.

Results

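The 2 kinds of granulosa sample from the same bovine preovulatory follicles were compared before the LH surge: antral granulosa, the cells aspirated with the follicular fluid, and membrane-associated granulosa, the cells that stayed with the follicle wall. The comparison rests on 6 of the 18 arrays of the series, 3 antral and 3 membrane, and on the 24016 probe sets that are not array controls. Each of cows D, F and G gave 1 dominant follicle before LH, and its antral granulosa, membrane granulosa and theca went on separate arrays, so that every difference can be taken within a cow. The same 3 fractions of cows A, B and C were taken 22 h after GnRH, which was given to induce the surge, and are used here only for comparison. Each array holds total RNA of 1 fraction of 1 cow. No treatment is labelled for the cows before LH, and breed and age are not given in the sources used here.

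Granulosa cells line the antrum of the follicle, rest on a basement membrane, and are kept apart from the vascular theca by it. Under FSH they make oestradiol from theca androgens with the aromatase CYP19A1, and late in growth they gain the LH receptor. The cells next to the basement membrane and those at the antrum are exposed to different supplies of oxygen, matrix and hormones. The theca holds steroid cells that make androgens and INSL3, with fibroblasts, smooth muscle, vessels and leukocytes between them.

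Levels are log2 signals, 1 unit standing for a doubling, and a difference is antral less membrane, averaged over 3 cows. The standard error after ± is limma's. Its spread is estimated per probe set over all 18 arrays, theca and the cows after LH included. It is therefore not the error of the 3 cow differences themselves, which can be wider. Adjusted p is limma's, corrected over all 24016 probe sets, and called means an adjusted p under 0.05. A gene is read from its brightest probe set. The files give no detection calls, and 4.62 is the limit under which the dimmest probe sets lie when all are put by mean signal into 3 parts of equal size. Where a gene lay below this limit on all 3 arrays of a fraction, only a lower bound on the difference is printed, the other fraction's mean less 4.62. Levels of different genes are not compared, because signal differs between probes. In these bulk samples fewer cells of a type and less RNA per cell cannot be told apart.

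A small share of the genes passed the threshold between the 2 fractions. An unadjusted p under 0.05 (limma) was more common, at 4093 of 24016 probe sets and 1880 of 9155 genes. Of 24016 probe sets 426 were called (1.77%), 165 of them higher in antral granulosa (0.687%) and 261 lower (1.09%). All 426 had the same sign in the 3 cows, and the fractions did not overlap for 149 of the 165 and 240 of the 261, against 18.4% of all probe sets. The 426 were called on these same values, so the common sign and the separation follow in part from that choice. Read from the brightest probe set of each gene, 236 of 9155 genes were called (2.58%). Of these 96 were higher in antral granulosa (1.05%) and 140 lower (1.53%). Among the called probe sets 119 carry no symbol or several, and some others are not the brightest of their gene. The lower genes differed by more: 70 of 140 by at least 1, against 24 of 96 higher genes, and 34 against 4 by at least 2. The median difference was -0.99 for the lower and 0.73 for the higher genes, against 0.04 over all genes.

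These counts depend on the 3 cows and on the pairing within cows. Without the cow as a block 134 probe sets were called, and quantile normalization gave 231 higher and 221 lower. Without cow D 83 probe sets were called, 70 of them among the 426. Without cow F 279 were called, 185 of them among the 426, and without cow G 187, 94 of them among the 426. Those called with all cows and also without each of the 3 in turn numbered 42, of which 8 were higher and 34 lower. Among genes, read from their brightest probe sets, they were 22, and 17 of these are described here. Lower were COL3A1, MGP, COL1A2, NID2, ACTA2, OGN, CCN2, FN1, DKK3, CAV1, ADAMTS1, CARTPT, PLAT and COL4A1, and higher were MIF, CENPX and POLR2I. Among the 140 lower genes 88 had their smallest difference in cow F, and among the 96 higher genes 57 had their largest in cow D.

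**Figure D1:**
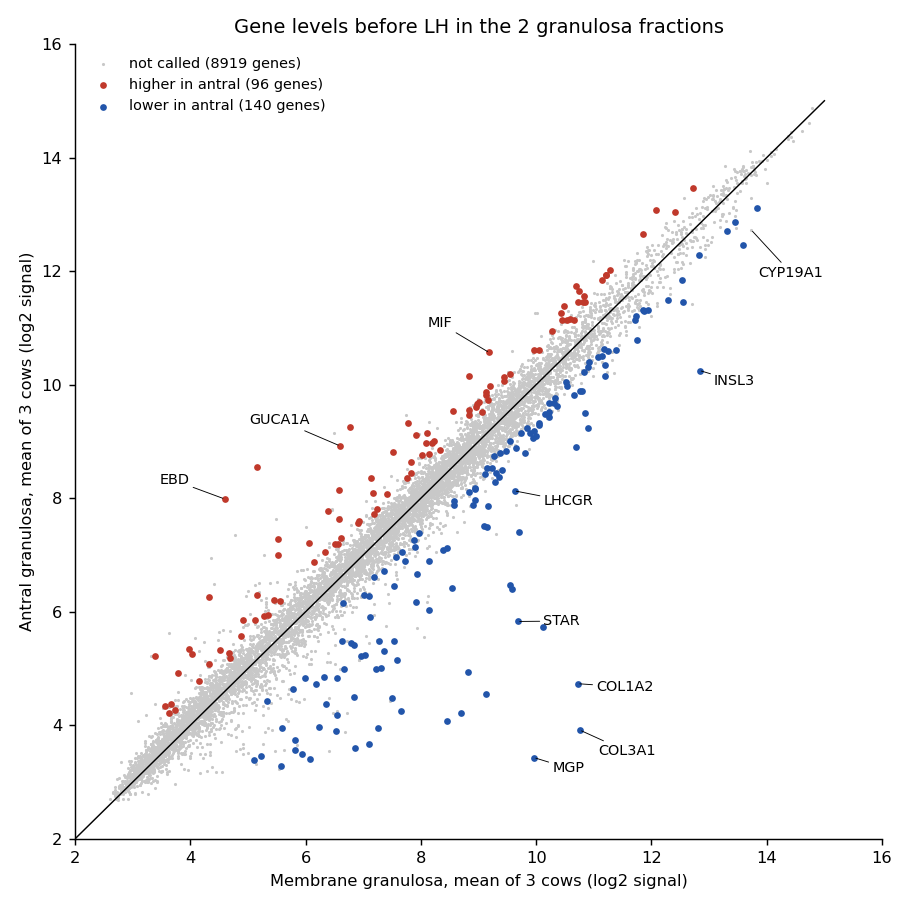
Mean log2 signal of 9155 genes in membrane granulosa (horizontal axis) and antral granulosa (vertical axis) of 3 cows before LH; red and blue points are the 96 genes called higher and the 140 called lower in antral granulosa, and the line marks equal levels. Most genes lie along the line, and the points farthest from it are below it, at COL3A1, COL1A2 and MGP.

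Both fractions carried the defining genes of granulosa, and no granulosa marker passed the threshold between them. Of 16 measured markers none was called, and their median difference was -0.05. The log2 of their summed signal was 17.0 to 17.1 on the antral and 17.1 to 17.2 on the membrane arrays, against 15.4 to 16.2 in theca of the same cows. FSHR, the FSH receptor, read 8.55, 8.23 and 7.69 in antral granulosa of cows D, F and G and 8.33, 7.88 and 8.38 in membrane granulosa. The 2 sets overlap, and the difference was -0.04 ± 0.28 (adjusted p = 0.963). CYP19A1 read 11.97, 13.02 and 13.18 in antral and 13.92, 13.69 and 13.59 in membrane granulosa. All 3 antral values lay below the membrane values, most of all in cow D, but the difference of -1.01 ± 0.61 was not called (adjusted p = 0.436). HSD17B1, which reduces oestrone to oestradiol, went the other way, at 11.40, 11.65 and 10.72 in antral and 9.63, 10.61 and 9.82 in membrane granulosa. Its antral values were all above the membrane ones, and the difference of 1.24 ± 0.29 narrowly missed the threshold (adjusted p = 0.0537).

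The inhibin subunits INHA (-0.16 ± 0.12) and INHBA (-0.13 ± 0.33), the activin-binding FST (0.01 ± 0.26), AMH (0.06 ± 0.26), the gap junction protein GJA1 (-0.16 ± 0.12) and the protease inhibitor SERPINE2 (-0.05 ± 0.18) were not called. INHBA read 14.52 to 14.67 in antral and 14.70 to 14.76 in membrane granulosa, where the brightest value of any array was 14.90, so a difference there could be understated. ESR2, the oestrogen receptor of granulosa, differed by 0.61 ± 0.20 (adjusted p = 0.136). Of the 17 measured genes of the inhibin, activin and BMP system none was called, with a median of -0.17.

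The largest differences were those of matrix and stromal genes, which were bright in theca, present in membrane granulosa and close to or below the limit in antral granulosa. COL3A1, a fibrillar collagen chain, read 4.07, 4.31 and 3.36 in antral granulosa of cows D, F and G and 11.53, 9.18 and 11.57 in membrane granulosa. The antral values were all below the limit, and the lowest membrane value was that of cow F. The gene was at least 6.14 lower in antral granulosa (adjusted p = 0.000643), and in theca it read 13.17 to 13.75. COL1A2, of collagen I, read 4.55, 5.08 and 4.57 in antral and 10.77, 9.74 and 11.66 in membrane granulosa. The groups lay more than 4 units apart, with a difference of -5.99 ± 0.54 (adjusted p = 0.000513), and its other probe set gave -6.84.

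MGP, an inhibitor of calcification in matrix, read 3.44, 3.40 and 3.45 in antral and 11.17, 8.93 and 9.79 in membrane granulosa. It was at least 5.34 lower (adjusted p = 0.00134), but another of its probe sets, with means of 6.51 and 6.68, gave -0.18. NID2, which links laminin and collagen IV in basement membranes, read 4.55, 5.04 and 4.05 in antral and 10.27, 7.32 and 9.79 in membrane granulosa. Cow F again had the lowest membrane value, and the difference was -4.58 ± 0.50 (adjusted p = 0.00108). ACTA2, the actin of smooth muscle and of stromal cells, read 4.07 to 4.41 in antral granulosa and 8.71, 7.67 and 9.69 in membrane granulosa. It was at least 4.07 lower (adjusted p = 0.00134), and its theca values were 12.66 to 13.45.

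ALDH1A1, which makes retinoic acid, read 6.83, 4.98 and 5.40 in antral and 12.46, 7.23 and 10.68 in membrane granulosa. The highest antral value, of cow D, was just under the membrane value of cow F, and the difference was -4.39 ± 0.69 (adjusted p = 0.0125). CCN2, a matricellular growth factor, read 5.09, 5.41 and 4.33 in antral and 8.53, 9.46 and 8.48 in membrane granulosa, and here cow F was the highest of the membrane arrays. The difference was -3.88 ± 0.39 (adjusted p = 0.000643). The proteoglycan OGN was at least 3.82 lower (adjusted p = 0.000513), APOD, a lipid carrier, at least 3.02 (adjusted p = 0.0190), COL12A1 at least 2.63 (adjusted p = 0.00738) and SPARCL1 at least 2.48 (adjusted p = 0.0304). All 4 lay below the limit on every antral array and above it on every membrane array. Other probe sets of APOD gave -1.35 and -0.07. Those of COL12A1, below the limit on all 6 arrays, gave -0.96 and -0.07, and none of these was called. The calls of ALDH1A1, APOD, COL12A1 and SPARCL1 ended without cow D or cow G, with adjusted p up to 0.203, and without the cow as a block that of SPARCL1 (adjusted p = 0.0819) ended.

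**Figure D2:**
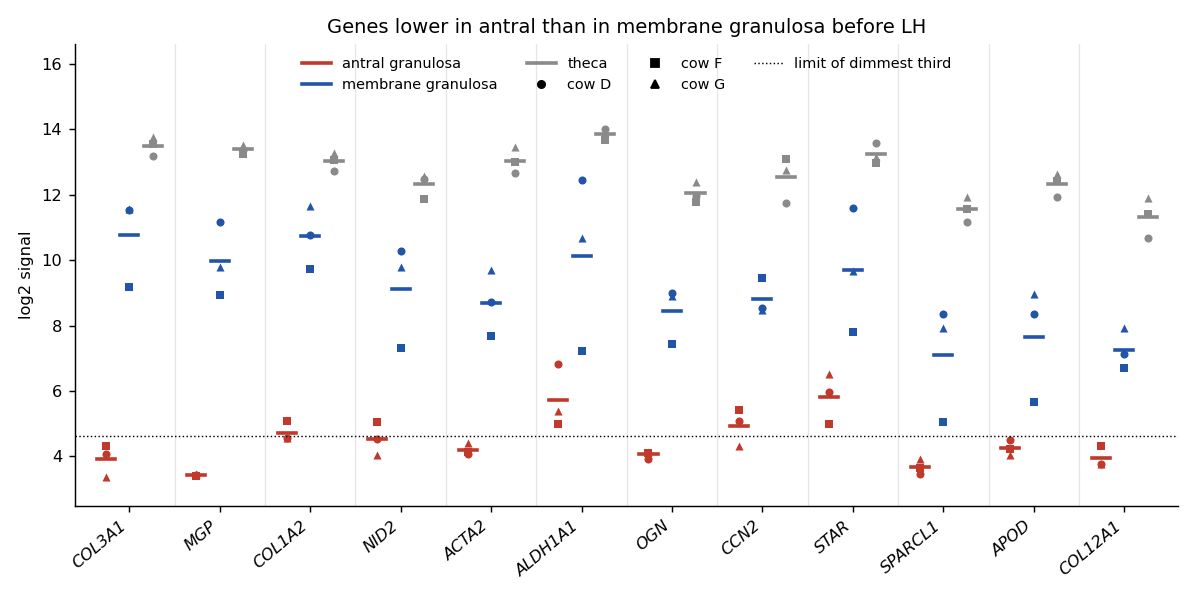
Log2 signal by array of the 12 genes with the largest differences below 0, in antral granulosa (red), membrane granulosa (blue) and theca (grey) of cows D, F and G before LH; bars are means of 3 cows and the dotted line is the limit of 4.62. In all 12 genes the membrane values lie between the antral and the theca values, and in 11 of them cow F, drawn as a square, is the lowest of the membrane arrays.

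As lists these genes were described by counts. Of 22 measured genes of stromal matrix 9 were lower in antral granulosa (40.9%, against 1.53% of all genes) and none higher, with a median of -1.61. Besides the above they included FN1, the fibronectin of matrix and plasma (-3.07 ± 0.31), the proteoglycans DCN (-3.18 ± 0.44) and LUM (-1.58 ± 0.35), FBN1 of microfibrils (-2.31 ± 0.53) and SPARC, a collagen-binding protein (-1.78 ± 0.27). FN1 read 6.25 to 6.87 in antral and 8.93 to 10.06 in membrane granulosa. Of the 9, 5 stayed called without cow D, 7 without cow F and 5 without cow G. Of 12 measured genes of the basement membrane and focal matrix 3 were lower (25%, against 1.53% of all genes) and none higher, with a median of -0.84. They were NID2, the laminin chain LAMB1 and the collagen IV chain COL4A1. LAMB1 read 7.12, 6.17 and 5.95 in antral and 9.17, 7.71 and 8.72 in membrane granulosa, a difference of -2.12 ± 0.31 (adjusted p = 0.00875). Without cow G the calls of LAMB1 and SPARC ended and without cow D that of DCN, and those of LUM and FBN1 ended without any 1 cow (adjusted p up to 0.248). COL4A1 was bright in both, at 11.63, 11.33 and 11.40 in antral and 12.72, 12.21 and 12.68 in membrane granulosa. The sets did not overlap, and the difference was -1.08 ± 0.15 (adjusted p = 0.00454).

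Markers of other cell types moved with these genes. Of 16 fibroblast markers 6 were lower in antral granulosa (37.5%, against 1.53% of all genes) and none higher (median -1.36), and 5 of the 6 are also in the matrix list. The log2 of their summed signal was 9.84 to 10.3 in antral granulosa, 11.7 to 13.3 in membrane granulosa and 15.2 to 15.7 in theca. In membrane granulosa it was 13.1 in cow D, 11.7 in cow F and 13.3 in cow G. Of the 6, 3 stayed called without cow D, 4 without cow F and 4 without cow G. Of 12 smooth muscle and pericyte markers 3 were lower (25%; ACTA2, TAGLN and MYLK; median -0.48; the last 2 not called without cow D or cow G), with summed signals of 10.4 to 11.2, 11.1 to 12.1 and 14.3 to 15.01 in the same order. Of 12 theca markers 3 were lower (25%; INSL3, STAR and LHCGR; median -0.50), with 13.8 to 14.5, 14.3 to 15.5 and 15.7 to 16.1. No marker of endothelium was called among 17 (median -0.26), and the summed signals were 8.54 to 8.70 in antral granulosa, 8.61 to 9.31 in membrane granulosa and 11.8 to 12.4 in theca. On every antral array between 9 and 11 of these 17 lay below the limit. The part of theca, fibroblast and smooth muscle cells in the lower levels of matrix genes was not tested.

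INSL3 and STAR, both among the theca markers, were called lower in antral than in membrane granulosa. INSL3, a peptide hormone of theca cells, read 10.79, 9.92 and 10.04 in antral granulosa and 14.04, 10.87 and 13.60 in membrane granulosa. Cow F had a membrane value within 1 unit of its antral value, and the difference was -2.59 ± 0.53 (adjusted p = 0.0311). The cholesterol carrier of mitochondria, STAR, read 5.98, 5.0 and 6.51 in antral and 11.58, 7.81 and 9.66 in membrane granulosa. The values did not overlap, and the difference was -3.86 ± 0.80 (adjusted p = 0.0328). CYP17A1, the theca enzyme of androgen synthesis, read 5.81, 5.40 and 5.42 in antral but 10.42, 4.90 and 8.84 in membrane granulosa. In cow F it was thus lower in the membrane fraction than in the antral one, and the difference of -2.51 ± 0.66 was not called (adjusted p = 0.0717). CYP11A1 (-0.25 ± 0.50) and HSD3B1 (-0.41 ± 0.30), which both granulosa and theca use, were not called, and STAR was the only call among 15 measured genes of oestradiol and progesterone synthesis (median -0.13).

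LHCGR, the receptor for LH and also a called theca marker, was lower in theca than in membrane granulosa. It read 7.36, 8.19 and 8.83 in antral granulosa, 9.57, 9.50 and 9.81 in membrane granulosa and 9.28, 7.96 and 8.46 in theca. Every membrane value was above every antral and every theca value, and the difference was -1.50 ± 0.32 (adjusted p = 0.0385). Another probe set gave -1.33 and was not called (adjusted p = 0.174). LHCGR was the only one of 19 measured hormone receptors to be called (median -0.02), and NR3C1, PPARG and ESR2 had adjusted p of 0.0945 to 0.136. The calls of STAR, INSL3 and LHCGR each ended without at least 2 of the 3 cows (adjusted p up to 0.226). Without the cow as a block the 3 were not called either, with adjusted p of 0.190, 0.0847 and 0.0708.

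Some genes were highest in membrane granulosa of the 3 fractions, so their theca level did not lie above it. PLAT, the tissue plasminogen activator, read 9.18, 9.14 and 9.37 in antral granulosa, 10.94, 10.55 and 11.18 in membrane granulosa and 9.45 to 9.77 in theca. The antral values of the 3 cows lay close together, and the difference was -1.66 ± 0.20 (adjusted p = 0.00206). CARTPT, a peptide known in bovine granulosa for dampening the FSH response, read 5.46, 5.61 and 5.38 in antral, 7.12, 6.77 and 7.95 in membrane granulosa and 5.14 to 5.41 in theca. Its difference was -1.79 ± 0.23 (adjusted p = 0.00317), and like that of PLAT it held without any 1 of the cows. CARTPT was picked after its values were seen. GPX3, a secreted glutathione peroxidase, read 8.40, 7.08 and 8.12 in antral, 9.37, 8.88 and 9.24 in membrane granulosa and 6.44 to 7.67 in theca (-1.29 ± 0.29, adjusted p = 0.0465). ECE1, which cuts endothelin to its active form, read 8.73 to 8.96 in antral, 9.50 to 9.85 in membrane granulosa and 8.60 to 8.71 in theca (-0.77 ± 0.15, adjusted p = 0.0240). The GPX3 call ended without any 1 cow and that of ECE1 without cow D or cow G (adjusted p up to 0.175).

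Of 27 genes of cell adhesion and junctions 3 were lower in antral granulosa (11.1%, against 1.53% of all genes) and none higher (median -0.19). ITGB1, the integrin chain that most matrix receptors share, read 12.86, 12.91 and 12.84 in antral and 13.55, 13.33 and 13.44 in membrane granulosa. The difference was small but regular, at -0.57 ± 0.10 (adjusted p = 0.0211). CAV1, the coat protein of caveolae, read 3.94 to 4.02 in antral granulosa and 6.40, 5.99 and 6.32 in membrane granulosa, and was at least 1.61 lower (adjusted p = 0.000513). The tight junction protein CLDN11 was at least 1.20 lower (adjusted p = 0.0210), while its other probe set, above the limit on all 6 arrays, gave -0.44 (adjusted p = 0.629). The calls of ITGB1 and CLDN11 ended without cow D or cow G.

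Of 12 genes of the IGF system 2 were lower (16.7%, against 1.53% of all genes; median -0.62). IGFBP3, a carrier of IGFs, read 4.62, 4.84 and 5.11 in antral and 5.90, 6.47 and 6.57 in membrane granulosa (-1.46 ± 0.31, adjusted p = 0.0385; its other probe set -1.73, adjusted p = 0.0393). IGF2R, which takes up IGF2 and lysosomal enzymes, read 9.52 to 9.73 in antral and 9.94 to 10.67 in membrane granulosa (-0.74 ± 0.17, adjusted p = 0.0488). IGF2 read 5.41, 5.29 and 5.62 in antral and 8.02, 5.54 and 7.76 in membrane granulosa, where cow F was again the lowest, and was not called (adjusted p = 0.0718). The IGFBP3 call ended without any 1 cow and that of IGF2R without cow D or cow G (adjusted p up to 0.257). Neither was called without the cow as a block (adjusted p of 0.149 and 0.145).

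Genes higher in antral granulosa differed by less. The largest differences were those of beta-defensins, short antimicrobial peptides. EBD read 10.30, 7.73 and 5.93 in antral and 3.99, 5.44 and 4.35 in membrane granulosa of cows D, F and G. The antral level was highest in cow D, and the difference was 3.39 ± 0.70 (adjusted p = 0.0329). DEFB4A followed the same order, with 10.56, 8.55 and 6.55 in antral and 5.02, 6.38 and 4.08 in membrane granulosa (3.39 ± 0.61, adjusted p = 0.0211), while another probe set gave 2.70 and was not called (adjusted p = 0.0815). Bovine beta-defensins are near-identical in sequence, so these 2 readings may share RNA and are uncertain as to the gene. The other 4 measured members, DEFB10, DEFB13, LAP and TAP, differed by 0.00 to 0.34 and were not called.

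GUCA1A, a calcium-binding activator of guanylate cyclase, read 9.21, 10.54 and 7.01 in antral, 5.81, 7.80 and 6.17 in membrane granulosa and 4.73 to 5.32 in theca. The sets overlap between cows, because cow F was high in both, but each cow was higher in its antral fraction (2.33 ± 0.43, adjusted p = 0.0233). FABP3, a fatty acid carrier, read 9.81, 9.52 and 8.65 in antral and 7.77, 8.16 and 7.38 in membrane granulosa (1.56 ± 0.29, adjusted p = 0.0240). PLA2G7, which inactivates platelet-activating factor, differed by 1.38 ± 0.28 (adjusted p = 0.0303). PTGES, the prostaglandin E synthase, read 7.38, 7.61 and 6.01 in antral and 5.82, 5.95 and 4.78 in membrane granulosa. Each cow had a higher antral value, and the difference was 1.48 ± 0.31 (adjusted p = 0.0364). CDH8, a cadherin, was at least 0.59 higher (adjusted p = 0.0223) and TUSC3, a subunit of the oligosaccharyltransferase, at least 0.72 (adjusted p = 0.0184), both below the limit on all membrane arrays.

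MIF, a cytokine with a tautomerase fold, was called without each of the 3 cows in turn. It read 11.06, 10.42 and 10.21 in antral granulosa and 9.15, 9.37 and 9.02 in membrane granulosa. The lowest antral value was above the highest membrane value, and the difference was 1.38 ± 0.18 (adjusted p = 0.00317). CENPX, a small protein of centromeres and DNA repair, read 9.38, 9.17 and 8.92 in antral and 8.17, 8.22 and 7.94 in membrane granulosa (1.05 ± 0.12, adjusted p = 0.00135). POLR2I, a subunit of RNA polymerase II, read 9.45 to 9.59 in antral and 8.40 to 8.83 in membrane granulosa (0.98 ± 0.12, adjusted p = 0.00317). CENPX and POLR2I were picked after their values were seen.

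CD14, the endotoxin co-receptor of macrophages, read 7.84, 5.68 and 5.26 in antral granulosa and 3.92 to 4.62 in membrane granulosa, and was at least 1.64 higher (adjusted p = 0.0488). Its other probe set gave 0.35 and was not called. It was the only one of 23 leukocyte markers to be called (median -0.17). Their summed log2 signal was 9.63 to 10.9 in antral and 10.1 to 10.4 in membrane granulosa, and PTPRC, which all leukocytes carry, read 6.62 to 7.44 in antral and 7.75 to 8.03 in membrane granulosa. The macrophage marker CD68 read 7.71, 5.90 and 4.90 in antral and 5.05, 5.75 and 5.15 in membrane granulosa, with cow D the highest, as for CD14. The part of leukocytes in the CD14 level was not tested. No marker of red cells (8 measured, median -0.01) or of the oocyte and cumulus (8 measured, median 0.24) was called.

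Of the 12 genes plotted here only MIF was called without each of the 3 cows in turn. The calls of EBD, GUCA1A, CDH8, PFKP, PFKFB3, FABP3, PTGES and PLA2G7 ended without cow D or cow F, that of TUSC3 without cow F or cow G, that of DEFB4A without cow D and that of CD14 without any 1 of them. The highest adjusted p of each then lay between 0.105 and 0.247. Without the cow as a block MIF (adjusted p = 0.0235) and TUSC3 (adjusted p = 0.0115) were called and the other 10 were not, with adjusted p from 0.0535 for CDH8 to 0.725 for FABP3.

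**Figure D3:**
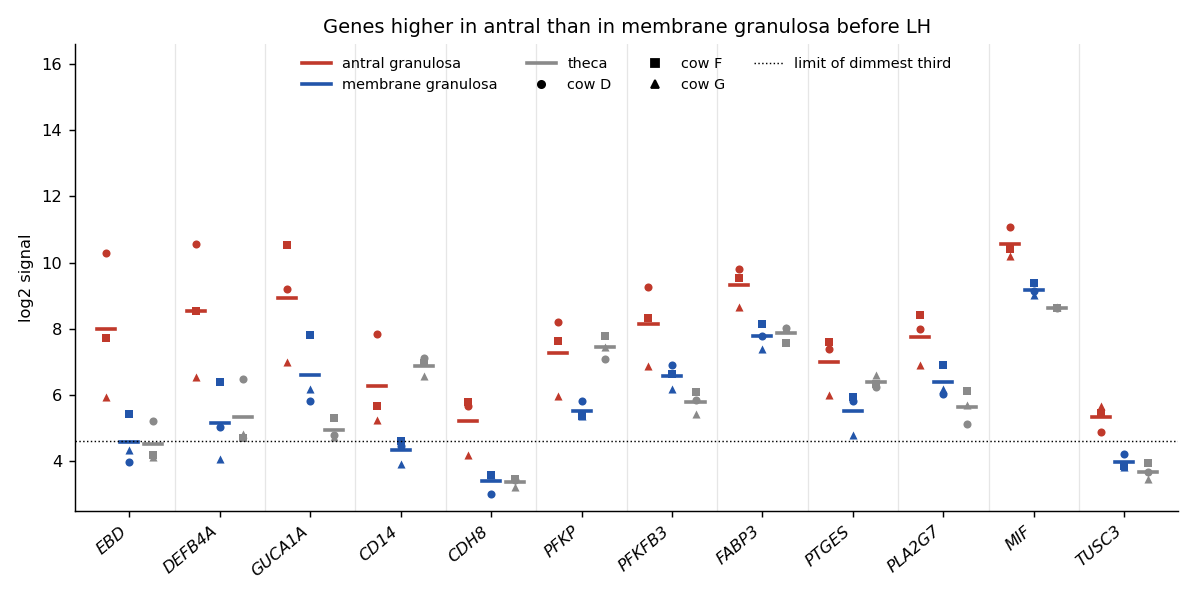
Log2 signal by array of the 12 genes with the largest differences above 0, in antral granulosa (red), membrane granulosa (blue) and theca (grey) of cows D, F and G before LH; bars are means of 3 cows and the dotted line is the limit of 4.62. The antral values spread widely between cows for EBD (5.93 to 10.30) and DEFB4A and lie close together for MIF (10.21 to 11.06).

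Genes of glycolysis and of the response to low oxygen were the list with the most members higher in antral granulosa. Glycolysis splits glucose for energy without oxygen, and the factor HIF1A switches many of its enzymes on when oxygen is short. Of 31 measured members 8 were called higher (25.8%, against 1.05% of all genes) and none lower. The difference lay above 0 in 26 of 31, against 56.1% of all genes, and the median was 0.43. The median was 0.55 in cow D, 0.32 in cow F and 0.45 in cow G. PFKP, the platelet form of phosphofructokinase, read 8.21, 7.64 and 5.98 in antral and 5.81, 5.38 and 5.37 in membrane granulosa. The antral values of cows D and F were more than 2 units above their membrane values and that of cow G less than 1 (1.75 ± 0.40, adjusted p = 0.0464). PFKFB3, which makes the activator of phosphofructokinase, read 9.25, 8.32 and 6.86 in antral and 6.89, 6.62 and 6.20 in membrane granulosa (1.57 ± 0.31, adjusted p = 0.0279). Other, dim probe sets of PFKFB3 gave 0.14 and 0.19 and were not called.

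The liver form PFKL read 9.59, 8.61 and 8.71 in antral and 8.26, 8.0 and 7.99 in membrane granulosa, with no overlap (0.89 ± 0.18, adjusted p = 0.0281). TPI1, the triosephosphate isomerase, read 13.06, 12.37 and 12.55 in antral and 11.98, 11.80 and 11.79 in membrane granulosa (0.80 ± 0.15, adjusted p = 0.0235). The other 4 members were called. GPI, the isomerase of glucose phosphate (0.73 ± 0.16), ALDOC, an aldolase (0.74 ± 0.16), and PGK1, which makes ATP in the pathway (0.62 ± 0.13), had antral values above all membrane values. They and BNIP3 were named after their values were seen, PGK1 excepted. BNIP3, a HIF1A target that marks mitochondria for removal, read 12.51, 11.60 and 11.12 in antral and 11.24, 10.44 and 10.39 in membrane granulosa (1.05 ± 0.22, adjusted p = 0.0344).

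Other enzymes of the pathway went the same way without passing the threshold: LDHA by 0.73 (adjusted p = 0.0957), ALDOA by 0.59 (adjusted p = 0.0842), GAPDH by 0.56 (adjusted p = 0.0509) and ENO1 by 0.40 (adjusted p = 0.0783). VEGFA, the vascular growth factor that HIF1A induces, read 12.34, 11.38 and 10.08 in antral and 10.25, 9.74 and 9.94 in membrane granulosa. It was far higher in the antral fraction of cows D and F but close to the membrane value in cow G, and was not called (1.29 ± 0.39, adjusted p = 0.112). HIF1A itself differed by 0.02, and EPAS1, its relative in vessels, by -0.97 (adjusted p = 0.422). Outside the list, and picked after their values were seen, the lactate exporter SLC16A3 (1.33 ± 0.25, adjusted p = 0.0240) and the adenylate kinase AK4 (1.06 ± 0.22, adjusted p = 0.0310) were also higher. The SLC16A3 call ended without cow D or cow F and that of AK4 without any 1 cow (adjusted p up to 0.174). Another probe set of SLC16A3, above the limit on all 6 arrays, gave 0.07.

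The glycolysis calls depended on the cows and on the pairing. Without the cow as a block none of the 8 was called. Without cow D none of them was, without cow F 1 and without cow G 2. The fit of the 6 arrays alone gave none, and quantile normalization and centring on array medians left the median at 0.47 and 0.44. The log2 summed signal of the list was 16.99, 16.59 and 16.61 in antral and 16.35, 16.22 and 16.20 in membrane granulosa of cows D, F and G, so every antral array lay above every membrane array. RNA quality was read from control probe sets as the 3′ less the 5′ signal. For GAPDH it was 0.12 to 0.47 on antral and 0.30 to 0.86 on membrane arrays and for actin 1.15 to 2.26 and 1.39 to 1.88. For cyclophilin it was 1.47 to 1.61 and 1.60 to 2.01 and for eIF-4E 3.19 to 3.79 and 2.97 to 3.79. The part of RNA quality in these differences was not tested.

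**Figure D4:**
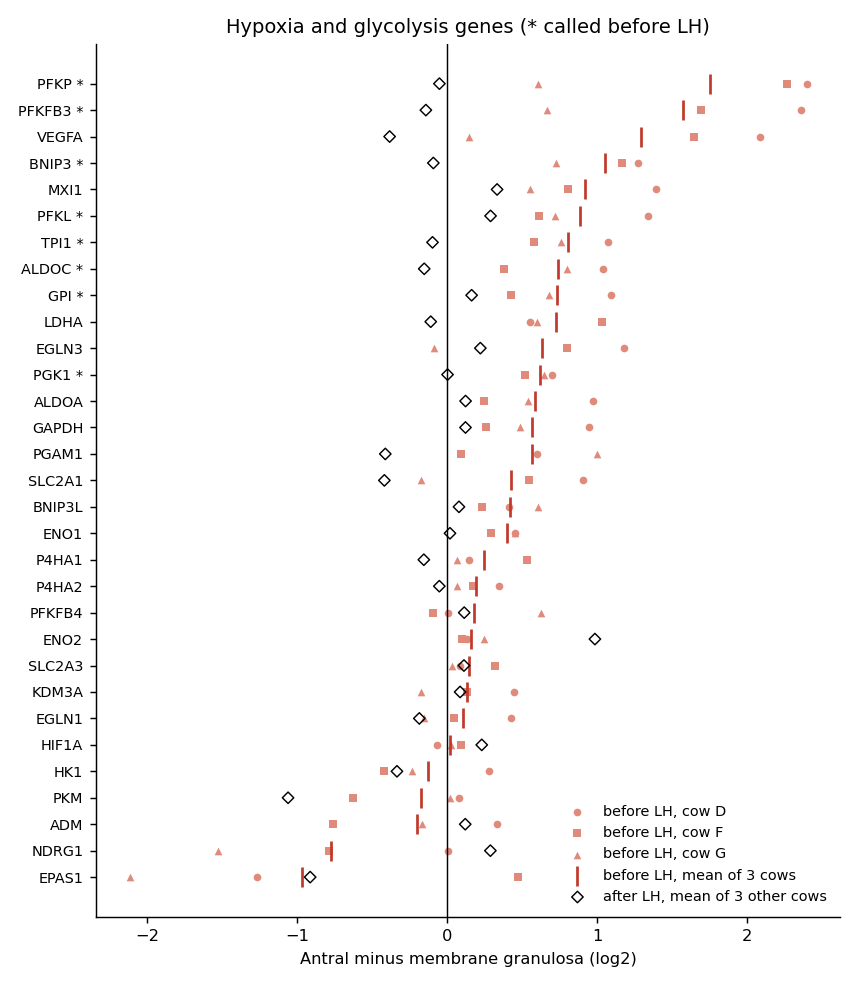
Antral less membrane difference (log2) of the 31 measured hypoxia and glycolysis genes in cows D, F and G before LH (circles, squares, triangles), with the mean of the 3 as a bar and the mean of cows A, B and C after LH as an open diamond; asterisks mark the 8 genes called before LH. The 26 genes with a mean above 0 before LH include all 8, and the diamonds gather around a median of 0.00.

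Genes of cell division lay slightly higher in antral granulosa, but none was called. All 22 measured mitosis genes had a difference above 0, against 56.1% of all genes, with a median of 0.31. UBE2C, which hands ubiquitin to the anaphase complex, read 11.60, 10.99 and 11.29 in antral and 10.50, 10.68 and 10.45 in membrane granulosa. The sets did not overlap, but the difference of 0.75 ± 0.19 missed the threshold (adjusted p = 0.0641). The spindle protein TPX2 (0.45 ± 0.16, adjusted p = 0.163) and BIRC5, of the chromosomal passenger complex (0.47 ± 0.19, adjusted p = 0.226), were not called either. The median of the mitosis genes was 0.40 in cow D, 0.07 in cow F and 0.28 in cow G. Of 22 DNA replication genes 20 lay above 0, with a median of 0.18 and no call. Among 17 G1 cyclins and CDK inhibitors none was called (median -0.11), CCND2, the cyclin that FSH induces in granulosa, at 0.41 ± 0.21 (adjusted p = 0.356).

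The remaining lists held few calls. Of all genes 1.05% were called higher and 1.53% lower. Among 22 ovulatory and cumulus expansion genes PTGES was higher and ADAMTS1 and PLAT were lower in antral granulosa (median 0.01, below 0 after quantile normalization). ADAMTS1, a protease that cleaves versican in the ovulating follicle, read 5.96, 5.03 and 5.45 in antral and 7.96, 7.25 and 7.36 in membrane granulosa (-2.04 ± 0.22, adjusted p = 0.00108). Its other, dim probe set gave -0.02. TNFAIP6, which stabilises the cumulus matrix, read 11.21, 10.35 and 12.68 in antral and 13.04, 11.42 and 13.66 in membrane granulosa. Each cow was lower in its antral fraction, but the difference of -1.29 ± 0.42 was not called (adjusted p = 0.138). PTGS2 and PTX3, which the surge switches on, lay below the limit on all 6 arrays.

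Of 21 immediate early genes CCN2 and CCN1 were lower (9.52%, against 1.53% of all genes), with a median of -0.14. CCN1 read 6.78 to 7.58 in antral and 8.30 to 8.70 in membrane granulosa (-1.33 ± 0.30, adjusted p = 0.0491). Of 19 angiogenic ligands and regulators ECE1 and NRP1 were lower (10.5%, against 1.53% of all genes), with a median of -0.16. NRP1, a co-receptor of VEGFA, read 9.99 to 10.29 in antral and 10.99 to 11.45 in membrane granulosa (-1.04 ± 0.19, adjusted p = 0.0211). Of 16 genes of WNT, Notch and Hedgehog signalling DKK3, a secreted relative of the WNT inhibitors, was at least 1.91 lower (adjusted p = 0.000643; 0.0908 without the cow as a block), with a list median of -0.03. Another DKK3 probe set, with means of 4.70 and 4.74, gave -0.04 (adjusted p = 0.968). IHH, the hedgehog ligand that granulosa sends to the theca, read 8.59 and 8.61 in antral granulosa of cows D and F but 3.64 in cow G, and 3.49 to 5.11 in membrane granulosa. It was not called (adjusted p = 0.136).

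Of 21 heat shock and unfolded protein genes 1 was higher (4.76%, against 1.05% of all genes), with a list median of -0.05. It was the small chaperone HSPB1, at 13.29 to 13.63 in antral and 12.53 to 13.02 in membrane granulosa (0.73 ± 0.15, adjusted p = 0.0281). Another HSPB1 probe set gave 0.61 and was not called (adjusted p = 0.0818). Of 22 genes of cholesterol and fatty acid synthesis and uptake 20 lay below 0, against 43.9% of all genes, with a median of -0.28. SREBF1, the factor that drives fatty acid synthesis, was the call among them (-0.73 ± 0.16, adjusted p = 0.0404). Its other probe sets gave -0.44, -0.58 and 0.28, and none was called. The lipoprotein receptor LRP8 read 7.70, 6.90 and 9.07 in antral and 10.27, 9.53 and 9.16 in membrane granulosa (adjusted p = 0.0630). Of 29 cytokine and innate immunity genes CD14 was higher and C1R, a complement protease, lower (3.45% each, against 1.05% and 1.53% of all genes). C1R differed by -1.16 ± 0.25 (adjusted p = 0.0393), and the list median was 0.07. Among 19 genes of oxidative stress and metal binding GPX3 was the call (5.26% lower, against 1.53% of all genes), with a median of 0.17. Among 20 of apoptosis and survival there was none (median -0.02). The calls of CCN1 and C1R ended without any 1 cow, and those of NRP1, HSPB1 and SREBF1 without cow D or cow G (adjusted p up to 0.222). Without the cow as a block CCN1, NRP1, HSPB1, SREBF1 and C1R were not called (adjusted p from 0.0851 to 0.231).

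After LH the same contrast was taken in 3 other cows, and 721 probe sets were called (3%), 343 of them higher (1.43%) and 378 lower (1.57%). Read from the brightest probe sets, 312 genes were called (3.41%), 106 higher (1.16%) and 206 lower (2.25%) in antral granulosa. Of the 140 genes lower before LH, 130 were lower after LH too, or 92.9%, against 50.8% of all genes. Of the 96 genes higher before LH 72 were higher after LH, or 75%, against 49.2% of all genes. Called in the same direction at both times were 44 lower genes, which are 31.4% of the 140 and 21.4% of the 206. For higher genes they were 11, which are 11.5% of the 96 and 10.4% of the 106. No gene called before LH was called in the opposite direction after it. The median difference after LH was -0.52 for the lower genes and 0.23 for the higher genes, and 125 of the 140 and 91 of the 96 differed by less after LH than before. That they were chosen on the difference before LH bears on this last count.

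Stromal matrix genes, ALDH1A1 and the theca marker INSL3 were among those lower at both times. After LH COL3A1 differed by -4.42 ± 0.68 (adjusted p = 0.0146), COL1A2 by -3.89 ± 0.54 (adjusted p = 0.0132), MGP by -5.27 ± 0.75 (adjusted p = 0.0132), ALDH1A1 by -5.69 ± 0.69 (adjusted p = 0.00776) and INSL3 by -2.72 ± 0.53 (adjusted p = 0.0277). Of the 140 genes lower in antral granulosa before LH 25 lay at least 2 above membrane granulosa in theca after LH (17.9%), against 2.52% of all genes and none of the 96 higher genes. With no minimum, theca lay above membrane granulosa after LH in 73 of the 140 (52.1%). This held for 50.5% of all genes and 62.5% of the higher genes. Before LH 63 of the 140 had a theca mean below the membrane mean. Others of the 140 had a smaller antral less membrane difference after LH than before. NID2 differed by -0.53 ± 0.50, CAV1 by 0.07 ± 0.20, PLAT by -0.27 ± 0.20, CARTPT by 0.09 ± 0.23 and LHCGR by -0.38 ± 0.32, and none was called. Among the genes higher before LH, MIF (-0.04 ± 0.18), GUCA1A (-0.27 ± 0.43), PTGES (0.03 ± 0.31) and PFKFB3 (-0.14 ± 0.31) were not called after it. The 31 hypoxia and glycolysis genes had a median of 0.00 after LH, with 1 call each way, where 1.16% of all genes were higher and 2.25% lower.

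**Figure D5:**
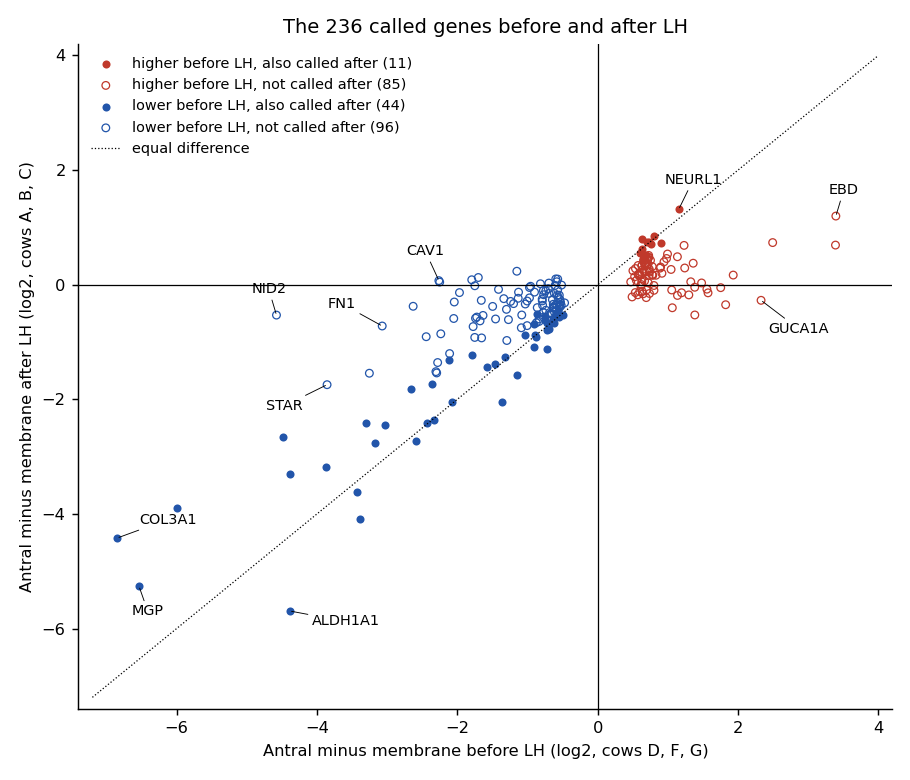
Antral less membrane difference (log2) before LH in cows D, F and G (horizontal axis) and after LH in cows A, B and C (vertical axis) for the 236 genes called before LH; filled points were also called after LH, and the dotted line marks equal differences. The 44 filled blue points include MGP and ALDH1A1 at the lower left, and GUCA1A and CAV1 lie near 0 on the vertical axis.

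Whether the difference itself changed with LH was tested as an interaction within the same fit. No probe set passed (limma, lowest adjusted p = 0.0503), and 2236 probe sets had an unadjusted p under 0.05. The lowest adjusted p was that of CAV1, whose difference before LH less that after it was -2.33, and which was called under 8 of the alternative settings. With the cow as a random block 3 probe sets were called, and 3 with the granulosa arrays alone. Without cow F 6 were called, NID2 (-5.20) and CYP17A1 (-4.50) among them, and without cow G 20, GUCA1A (3.34) and IHH (4.37) among them. Of the 31 hypoxia and glycolysis genes 16 had an unadjusted interaction p under 0.05, against 11.3% of all genes, and none passed the adjustment. This was not particular to the list. The count was 11 of 17 for G1 cyclins and CDK inhibitors, 35 of 67 for mitochondrial ribosomal proteins and 0 of 17 for the inhibin, activin and BMP system. That the glycolysis list stood out on the difference before LH, which enters the interaction, bears on its count.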

How the data were processed

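Total RNA of each fraction was labelled with biotin by a 3′ IVT kit and put on 1 Affymetrix bovine array per sample, per the labels' protocols. The authors deposited log2 signals made by RMA in Partek 6.5, per the submitters' processing notes, with settings not given in the sources used here. These log2 values were used as deposited, on 24016 probe sets without the array controls. They were fitted with limma 3.58.1 (R 4.3.3), over all 18 arrays, with the cow as a block and a coefficient for each fraction at each time, and Benjamini-Hochberg adjustment at 0.05. The cow letters in the labels pair the samples. Deviations of antral and membrane arrays from their group means correlated at 0.25, 0.22 and 0.24 within cows D, F and G and at -0.16 to -0.06 between cows. Deviations from a group mean sum to 0, so values above 0 within cows force values below 0 between them. The levels themselves correlated at 0.979, 0.985 and 0.981 within cows D, F and G and at 0.972 to 0.985 between cows. A gene was read from the probe set of highest mean among those with 1 symbol (9155 genes). The number of arrays limits the precision, and the median signal of the 6 arrays was 5.74 to 5.77. The fit was checked on simulated data. Genes named are the 12 largest called differences each way (placeholder symbols left out), up to 4 genes per list by smallest p, and 16 genes known in the follicle. All others were picked after their values were seen, also ALDOA, CD68, ENO1, EPAS1, FBN1, GAPDH, HIF1A, LDHA, LUM, PTGS2, PTX3, SPARC and the defensins not called. The members, lists and tests were chosen with earlier results of these data known. Alternatives were the block, the arrays fitted, normalization, filters, probe set choice and each cow left out. A minimum difference of 1, and some lists in the closing section, were added after seeing the data.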

Additional observations from a re-analysis of the deposited data

How the results depend on the processing

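The number of calls, 426 (165 higher and 261 lower), became 134 (43 and 91) with no replicate block, 103 (11 and 92) with the 6 arrays alone, 91 (13 and 78) with the 9 arrays before LH, and 175 (48 and 127) with a minimum difference of 1. Leaving out a cow gave 83 to 279 calls, 25 to 94 higher and 58 to 185 lower. The number of hypoxia and glycolysis calls, 8, became 0 with no replicate block, 3 with the cow as a random block, 0 with 6 or 9 arrays, 3 with a minimum difference of 1, and 0 to 4 without a cow. Without a cow 5 to 8 stromal matrix genes (9 with all cows) and 3 to 7 fibroblast markers (6 with all cows) were called, newly called genes included. The interaction, with 0 calls, gave 3 with a random block, 3 with the 12 granulosa arrays, 1 each with quantile normalization, without the dimmest probe sets, with 1 probe set per gene and with a trended robust fit, and 0 to 20 without a cow. Some named genes that were not called changed sign. Quantile normalization put HIF1A at -0.019 and TAP at -0.026. Without a cow AMH ranged from -0.27 to 0.51, FST from -0.030 to 0.095, FSHR from -0.24 to 0.29, HIF1A from -0.022 to 0.059, CD68 from -0.053 to 1.40, TAP from -0.054 to 0.044, DEFB10 from -0.0037 to 0.21 and DEFB13 from -0.043 to 0.30. None of the 81 called genes named changed sign under any setting. As each had the same sign in the 3 cows, only quantile normalization and centring on array medians could have changed it. Of the 81, 14 kept their call under every setting. The cause was not tested.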

Other observations

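Gene groups outside the lists above were put together after the calls were seen, so their counts describe these arrays and support nothing. Of 75 measured genes of the endoplasmic reticulum and Golgi 10 were lower in antral granulosa and 2 higher (1.53% and 1.05% of all genes were), 61 lay below 0 (43.9% of all genes did), and the median was -0.33. Those lower included the coatomer subunit COPB1, the signal peptidase subunit SPCS2, the glucosidase GANAB and the degradation factor EDEM2, and those higher were the oligosaccharyltransferase subunits OST4 and TUSC3. Of 40 lysosome genes 6 were lower, the membrane protein LAMP2 and the enzyme carrier M6PR among them, and the protease CTSL was higher (median -0.35). In the lysosome list no gene was called after LH in either direction. After LH 10 genes of the endoplasmic reticulum and Golgi list were lower and 1 higher, against 2.25% and 1.16% of all genes. Of the 10 lower calls before LH 1 stayed called without cow D, 1 without cow F and 0 without cow G, and of the 6 in the lysosome list 0, 2 and 0.

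Groups of small housekeeping proteins lay on the other side. Of 67 mitochondrial ribosomal proteins 4 were higher (MRPL24, MRPL45, MRPL46 and MRPS23), 58 lay above 0 and the median was 0.24 (0.25 in cow D, 0.03 in cow F and 0.43 in cow G). Of all genes 1.05% were higher and 56.1% lay above 0. Of 80 respiratory chain and ATP synthase subunits 4 were higher (COX7A1, NDUFA8, NDUFB10 and NDUFS5), with a median of 0.22. Of 67 cytosolic ribosomal proteins 1 was higher, RPL28 (median 0.15), of 26 RNA polymerase subunits 2, POLR2I and POLR2J (median 0.21), and of 40 proteasome subunits none (median 0.24). After LH 3 mitochondrial ribosomal and 5 respiratory genes were lower in antral granulosa and none higher. Of all genes 2.25% were lower and 1.16% higher after LH. In each of these 5 groups the median of cow F was 0.01 to 0.04. None of the 4 mitochondrial ribosomal or the 4 respiratory calls was made without the cow as a block.

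The ubiquitin ligase NEURL1 and the keratin KRT5 were higher in antral granulosa at both times. NEURL1 differed by 1.16 ± 0.25 before LH (adjusted p = 0.0397) and 1.32 ± 0.25 after it (adjusted p = 0.0277). KRT5 differed by 0.73 ± 0.15 (adjusted p = 0.0310) and 0.75 ± 0.15 (adjusted p = 0.0288). They were picked after their values were seen, and before LH each call ended without at least 2 of the 3 cows (adjusted p up to 0.207).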
